A study of Bos taurus with 24 samples.

Results

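Maternal effect genes are transcribed by the growing oocyte, and their products are needed by the embryo after fertilization. The genes described here are NLRP5, ZAR1, DPPA3, NPM2, OOEP, KPNA7 and H1FOO, a list drawn up with earlier results of these data known and matched by symbol to the deposited expression table. The choice used no expression threshold. All 7 were among its 11306 genes and among the 9526 genes that exceeded 0.1 FPKM in at least 1 library and were tested.

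The oocytes were collected by ovum pick-up from Angus-based Bos taurus beef cows that were neither lactating nor pregnant, in May (spring) or in July (summer), and freed of cumulus cells. They were sequenced as 24 libraries in 4 groups of 6, namely spring GV, summer GV, spring MII and summer MII oocytes. GV oocytes were at the germinal vesicle stage, before meiosis resumes. MII oocytes were collected as metaphase II oocytes after in vitro maturation in both seasons, so that maturation itself took place outside the cow. The methods score the nuclear stage by DAPI in immunostained oocytes and describe no such check for the sequenced pools. The methods and the design text describe a pool of 4 oocytes per library, whereas the protocol in the sample labels speaks of the lysis of single cells. Only the MII oocytes were cultured, in a medium with FSH and serum, so stage was not separated from culture. No other treatment and no genotype separated the groups. Season was not separated from any other difference between the May and the July collections. By the methods, each pool came from 1 animal of a herd that was sampled repeatedly, so the groups can share cows. The labels did not tie the replicate numbers to animals, so shared cows could not be entered in the fits, and p-values describe the spread between these libraries only.

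The fully grown oocyte is largely silent in transcription, and meiosis, fertilization and the earliest cleavages run on stored mRNA and protein. During maturation many stored transcripts are shortened at the poly(A) tail, translated or degraded. The genes examined act at different points of that programme. OOEP and NLRP5 encode proteins of the subcortical maternal complex, ZAR1 encodes an RNA-binding protein of stored maternal mRNA, KPNA7 encodes an oocyte importin alpha for nuclear import, and DPPA3, NPM2 and H1FOO encode proteins of maternal chromatin.

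Expression was given as FPKM, fragments scaled for exon length and for the mapped fragments of the library, and every library had been scaled to nearly the same total, 86768.1 to 86768.2 FPKM. A value is therefore a share of the RNA that was captured, and the amount of RNA per oocyte and the number of oocytes in a library cannot be told apart from it. Depth was read from the spacing of low values relative to spring GV replicate 1. It ranged from 0.0565 in spring GV replicate 6 and 0.149 in spring MII replicate 6 to 6.51 in summer GV replicate 5. The libraries of each stage were clustered without the 7 genes and cut into 2 clusters, so that some smaller cluster was certain to arise. The smaller clusters held the 6 libraries said here to cluster apart. They were spring GV replicate 6, summer GV replicate 2, spring MII replicates 3 and 6 and summer MII replicates 4 and 6. Not all were unusual, since spring MII replicate 3 had a depth of 0.763. Its median correlation with its stage was 0.959, against 0.938 to 0.971 in the other 18. Those 6 libraries had 8158 to 9883 genes above the lowest value of the table, against 9380 to 10989 in the other 18. Of 10 oocyte markers, 8 were listed, and their sum was 461 to 1277 FPKM in the 6 libraries and 176 to 451 FPKM in the other 18. Of 18 cumulus cell markers, 17 were listed, 9 had a median at or under 0.1 FPKM, and the sum of the list was 31.1 to 440 and 13.9 to 114 FPKM. Of the cumulus list, FSHR and AMH were at the lowest value of the table in 21 and 15 of the 24 libraries, although AMH reached 13.4 FPKM in another. HAS2, PTGS2, STAR, VCAN and KRT18 were above it in all 24, with STAR at 9.36 to 64.3 FPKM and KRT18 at 0.149 to 392 FPKM. By group, the cumulus sum was 23.2 to 440 FPKM in spring GV, 22.5 to 108 in summer GV, 19.3 to 123 in spring MII and 13.9 to 71.2 in summer MII oocytes. The part of these differences between libraries in the results below was not tested, and results that rest on the 6 libraries are given with and without them.

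The 7 genes differed widely in level, although the ranges of genes of similar level overlapped. OOEP had the highest FPKM of them in 9 of 12 GV and in 10 of 12 MII libraries, and DPPA3 had the highest in the rest. OOEP stood between rank 13 and rank 99 of all genes in GV and between rank 10 and rank 18 in MII libraries. DPPA3 stood between ranks 24 and 137 in GV and between ranks 12 and 29 in MII libraries. NLRP5 had the lowest FPKM of the 7 in 9 of 12 GV and in all 12 MII libraries, at ranks 618 to 1546 and 1251 to 2977. ZAR1 was near DPPA3 in GV libraries, at ranks 25 to 193, and stood at ranks 264 to 871 in MII libraries. NPM2, KPNA7 and H1FOO lay between, with medians over the 12 GV libraries of 33.3, 13.4 and 17.0 FPKM and over the 12 MII libraries of 20.4, 23.2 and 14.6 FPKM. The GV ranges of these 3 overlapped, but within each GV library NPM2 was above KPNA7. The place of H1FOO varied, from above NPM2 in spring GV replicate 2 to below KPNA7 in spring GV replicate 6. Together the 7 genes held 0.969% ± 0.236 (SD, n = 6) of the FPKM total in spring GV, 1.16% ± 0.0943 in summer GV, 1.47% ± 0.121 in spring MII and 1.48% ± 0.147 in summer MII libraries, most of it OOEP and DPPA3.

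**Figure D1:**
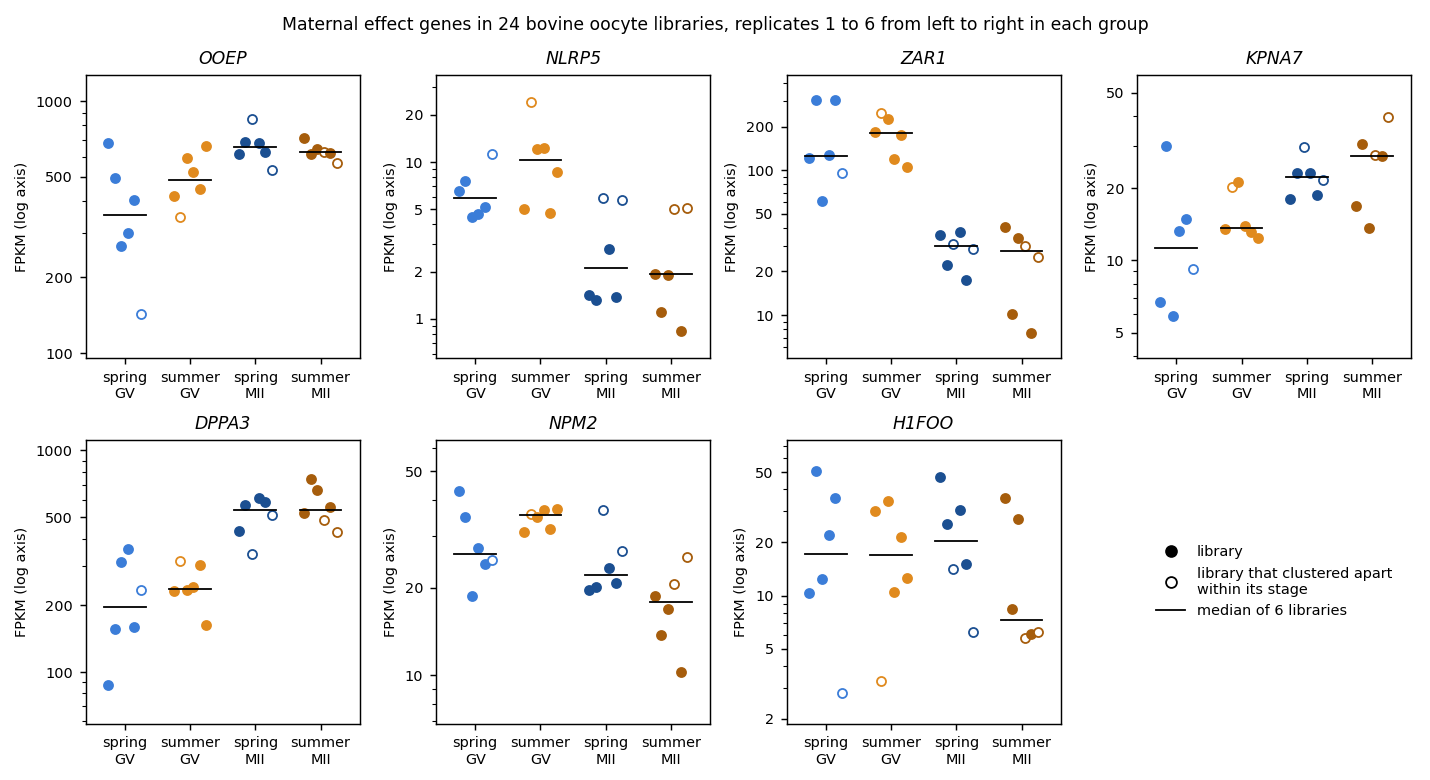
FPKM of the 7 genes in each of the 24 libraries on log axes, with a bar at the median of 6 and open circles for the 6 libraries that clustered apart. ZAR1 lies at 61.4 FPKM or higher in every GV library and at 40.5 or lower in every MII library, DPPA3 is higher in MII than in GV groups, and the season groups of each stage overlap for every gene.

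The comparison of MII with GV oocytes asked how these transcripts stood before and after maturation in each season. Calls were made with limma, and required a p under 0.05 without adjustment together with more than a 2-fold change. In both seasons DPPA3 rose and ZAR1 and NLRP5 fell from GV to MII, and no other of the 7 was called. In spring 1 of the 7 was called higher and 2 were called lower, where 3.57% and 8.25% of all genes were called in those directions. In summer the counts were again 1 and 2, against 2.2% and 9.26% of all genes. Of the genes called in spring, members or not, 30.2% were higher at MII. That share of the calls was 46.4% after quantile normalization, when the calls among the 7 became ZAR1, DPPA3 and KPNA7. It was 19.8% after median-of-ratios scaling, which left the 3 calls as they were. The summer share was 19.2%, and 42.3% after quantile normalization, with the calls still NLRP5, ZAR1 and DPPA3. An adjusted p under 0.05 by limma was reached by 4 of the 7 in spring (NLRP5, ZAR1, DPPA3 and OOEP), against 24.2% of all genes, and by 4 in summer (NLRP5, ZAR1, DPPA3 and NPM2), against 30.7%. The groups did not overlap for 1 of the 7 in spring (ZAR1), against 13.6% of all genes, and for 3 in summer (ZAR1, DPPA3 and NPM2), against 17.7%. The median log2 difference of the 7 was 0.24 in spring and -0.39 in summer, beside -0.03 and -0.02 over all genes. The members therefore differed in direction within each season.

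OOEP encodes a KH-domain protein that anchors the subcortical maternal complex. It ranged from 143 to 682 FPKM in spring GV libraries (median 353), from 348 to 662 in summer GV (median 487), from 533 to 849 in spring MII (median 655) and from 568 to 712 in summer MII libraries (median 626). The spring GV libraries were the most scattered, with replicate 6 lowest and replicate 1 inside the MII range, and the stages overlapped in both seasons. The difference from GV to MII was 0.95 on the log2 scale in spring (SE 0.31, limma adjusted p = 0.0426) and 0.37 in summer (SE 0.17, limma adjusted p = 0.120). Neither reached a fold change of 2, and without the 6 libraries the differences were 0.69 and 0.31, with exact permutation p of 0.0556 and 0.0794 in place of 0.0152 and 0.0303. Leaving out spring GV replicate 1, 2 or 5 or spring MII replicate 6 brought the spring difference over 2-fold, to 1.15 at most. Its spread was narrowest in summer MII oocytes, 633 ± 46.8 FPKM (SD, n = 6), and widest in spring GV oocytes, 382 ± 190.

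NLRP5, the NLR-family partner of OOEP in the complex, went the other way. Its values ran from 4.49 to 11.3 FPKM in spring GV (median 5.86), from 4.73 to 24.1 in summer GV (median 10.3), from 1.32 to 5.92 in spring MII (median 2.12) and from 0.840 to 5.12 in summer MII libraries (median 1.92). The 4 highest MII values, 5.05 to 5.92 FPKM, were those of the 4 MII libraries that clustered apart, and the other 8 MII libraries lay between 0.840 and 2.81. In GV oocytes the 2 libraries that clustered apart held the highest value of each season, 11.3 and 24.1 FPKM. NLRP5 fell by 1.00004 on the log2 scale in spring (SE 0.34, limma adjusted p = 0.0475), where the exact permutation test gave p = 0.0281. With the pseudocount of 1 this spring change was barely 2-fold, and with no pseudocount it was -1.32 and still called. The call was lost after quantile normalization (-0.84). It was also lost on leaving out spring GV replicate 1, 2 or 6 (-0.99, -0.95 and -0.85) or spring MII replicate 1, 2 or 5 (-0.88, -0.87 and -0.88). In summer NLRP5 fell by 1.70 (SE 0.41, limma adjusted p = 0.00816, exact permutation p = 0.0130). The stages overlapped in both seasons through the libraries that clustered apart. Without those 6 libraries the changes were -1.30 and -1.90, no MII value reached a GV value, and the exact permutation p was 0.00794 in each season, the smallest that 5 and 4 libraries allow. Those 6 libraries held the 4 highest MII values, so leaving them out favoured that separation. The exclusion was added after seeing the data, and the share of all genes without overlap in this smaller set was not counted.

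Because OOEP and NLRP5 products act in the same complex, their transcripts were also set against each other within each library, a pair chosen after the values had been seen. OOEP exceeded NLRP5 by a median of 64.8-fold in spring GV (12.7 to 104) and 63.2-fold in summer GV libraries (14.4 to 95.03), and by 339-fold in spring MII (92.5 to 523) and 353-fold in summer MII libraries (111 to 742). The lowest ratio of every group belonged to a library that clustered apart, and the medians of the seasons lay close together at each stage. DPPA3 and ZAR1, set against each other because they were called in opposite directions, stood at comparable FPKM in GV oocytes, with a median ratio of 1.59 in spring (0.517 to 5.10) and 1.41 in summer (1.04 to 2.03). In MII oocytes DPPA3 exceeded ZAR1 by a median of 17.0-fold in spring (10.9 to 33.3) and 18.2-fold in summer (12.8 to 73.7). No GV library reached the ratio of any MII library for this pair, which restates the calls that chose it. A ratio within a library does not depend on the scaling of that library to the common total.

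**Figure D2:**
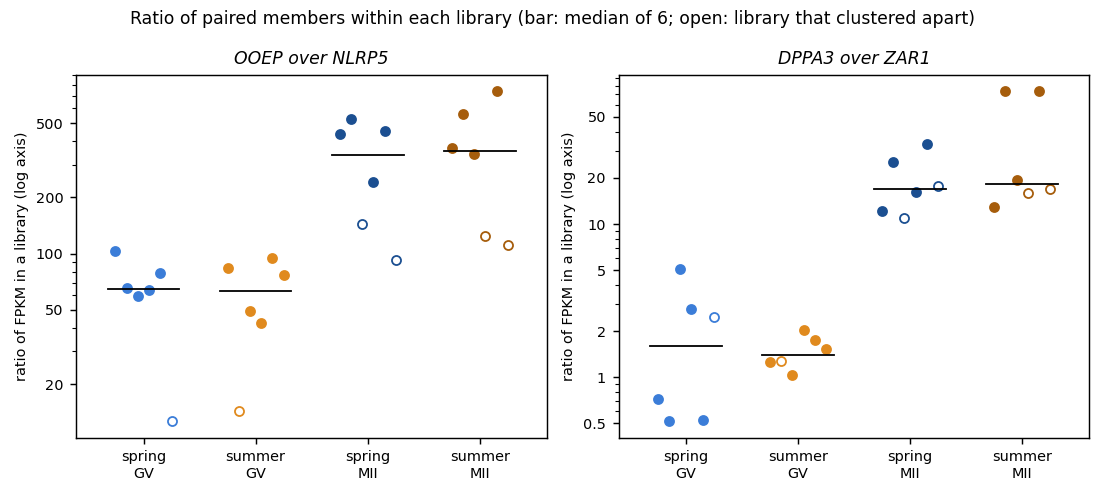
Ratio of the FPKM of OOEP to NLRP5 and of DPPA3 to ZAR1 in each library, on log axes, by group, with a bar at the median of 6 and open circles for the libraries that clustered apart. The DPPA3 to ZAR1 ratio is at most 5.10 in GV and at least 10.9 in MII libraries, while for OOEP to NLRP5 the MII library with the lowest ratio, 92.5, lies below the highest GV ratio, 104.

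ZAR1, zygote arrest 1, binds maternal mRNAs and takes part in their storage and translation. It showed the largest change of the 7. Spring GV libraries held 61.4 to 304 FPKM (median 125) and summer GV libraries 106 to 248 (median 180). Spring MII libraries held 17.5 to 37.5 FPKM (median 29.9) and summer MII libraries 7.54 to 40.5 (median 27.8). Every MII library was below every GV library in both seasons. ZAR1 fell by 2.32 on the log2 scale in spring (SE 0.39, limma adjusted p = 0.00129), to 0.201 of the GV value with a 95% interval of 0.113 to 0.358. In summer it fell by 2.94 (SE 0.40, limma adjusted p = 0.000194), to 0.130 of the GV value (0.0707 to 0.239). The exact permutation p was 0.00216 in both seasons, the smallest that 6 and 6 libraries allow. Leaving out any library kept the fall between -2.56 and -2.10 in spring and between -3.13 and -2.67 in summer, and without the 6 libraries it was -2.48 and -3.02. Summer MII replicates 2 and 5, at 10.1 and 7.54 FPKM, were the lowest of all 24, and neither was among the libraries that clustered apart.

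KPNA7 encodes an importin alpha found mainly in oocytes and early embryos. It ran from 5.86 to 30.0 FPKM in spring GV (median 11.2), from 12.4 to 21.2 in summer GV (median 13.7), from 18.0 to 29.6 in spring MII (median 22.4) and from 13.6 to 39.7 in summer MII libraries (median 27.3). In spring 5 of 6 GV libraries were below every MII library, and the other, replicate 2, was above them all. The log2 difference from GV to MII was 0.89 in spring (SE 0.33, limma adjusted p = 0.0676) and 0.64 in summer (SE 0.26, limma adjusted p = 0.0803), and neither was called. The exact permutation p was 0.0346 and 0.0390, and without the 6 libraries the differences were 0.74 and 0.50 with exact permutation p of 0.167 and 0.119. Without spring GV replicate 2 the spring difference was 1.15 and passed both thresholds, as it did after quantile normalization (1.13).

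DPPA3, also known as STELLA, protects maternal DNA methylation after fertilization. Its values ran from 87.7 to 359 FPKM in spring GV (median 197), from 162 to 318 in summer GV (median 238), from 339 to 611 in spring MII (median 537) and from 429 to 744 in summer MII libraries (median 538). In spring the stages overlapped by a single pair, MII replicate 3 at 339 FPKM and GV replicate 4 at 359, and in summer they did not overlap. DPPA3 rose by 1.33 on the log2 scale in spring (SE 0.32, limma adjusted p = 0.00927), a fold change of 2.52 with a 95% interval of 1.57 to 4.04. It rose by 1.19 in summer (SE 0.20, limma adjusted p = 0.000813), a fold change of 2.28 (1.69 to 3.08). The exact permutation p was 0.00433 and 0.00216. Without the 6 libraries the rise was 1.51 and 1.41 with no overlap in either season, and leaving out single libraries gave 1.10 to 1.51 in spring and 1.07 to 1.27 in summer. The spring overlap ended because MII replicate 3 was among the 6. The share of all genes without overlap in that smaller set was not counted.

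NPM2, nucleoplasmin 2, is a histone chaperone that remodels sperm chromatin and organizes nucleoli of the oocyte. Its values ran from 18.7 to 42.8 FPKM in spring GV (median 26.1), from 31.0 to 37.3 in summer GV (median 35.5), from 19.6 to 37.0 in spring MII (median 22.1) and from 10.2 to 25.5 in summer MII libraries (median 17.8). The summer GV libraries were tightly grouped, and all lay above the summer MII libraries, whereas in spring the stages overlapped almost fully. In summer the log2 difference was -0.99 (SE 0.20, limma adjusted p = 0.00280, exact permutation p = 0.00216), just short of the 2-fold limit. The summer change was past that limit with a pseudocount of 0.1 (-1.03), with none (-1.03), without the 6 libraries (-1.18), and on leaving out summer GV replicate 1 or 5 or summer MII replicate 1, 4 or 6 (-1.02, -1.01, -1.01, -1.04 and -1.10). The spring difference was -0.21 (SE 0.24, limma adjusted p = 0.528), and quantile normalization turned its direction (0.084).

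H1FOO encodes the oocyte linker histone. It was the most scattered of the 7, from 2.82 to 50.9 FPKM in spring GV (median 17.2), from 3.30 to 34.5 in summer GV (median 17.0), from 6.22 to 46.9 in spring MII (median 20.3) and from 5.71 to 35.6 in summer MII libraries (median 7.27). The GV libraries that clustered apart held its 2 lowest values of all 24, 2.82 and 3.30 FPKM, and all other GV libraries were at 10.4 or higher. The stages overlapped in both seasons. The differences from GV to MII were 0.24 in spring (SE 0.61, limma adjusted p = 0.774) and -0.39 in summer (SE 0.59, limma adjusted p = 0.648). Their 95% intervals, 0.476 to 2.95 and 0.317 to 1.85 as fold changes, include a 2-fold difference both ways in spring and a 2-fold fall in summer.

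For the libraries that clustered apart, H1FOO was the member without overlap between the 2 such GV libraries and the other 10, as were 34.9% of all genes, and NLRP5 was the member without overlap between the 4 such MII libraries and the other 8, as were 20.4% of all genes. These libraries were grouped on the other genes of the same table, so the counts are given as a description.

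**Figure D3:**
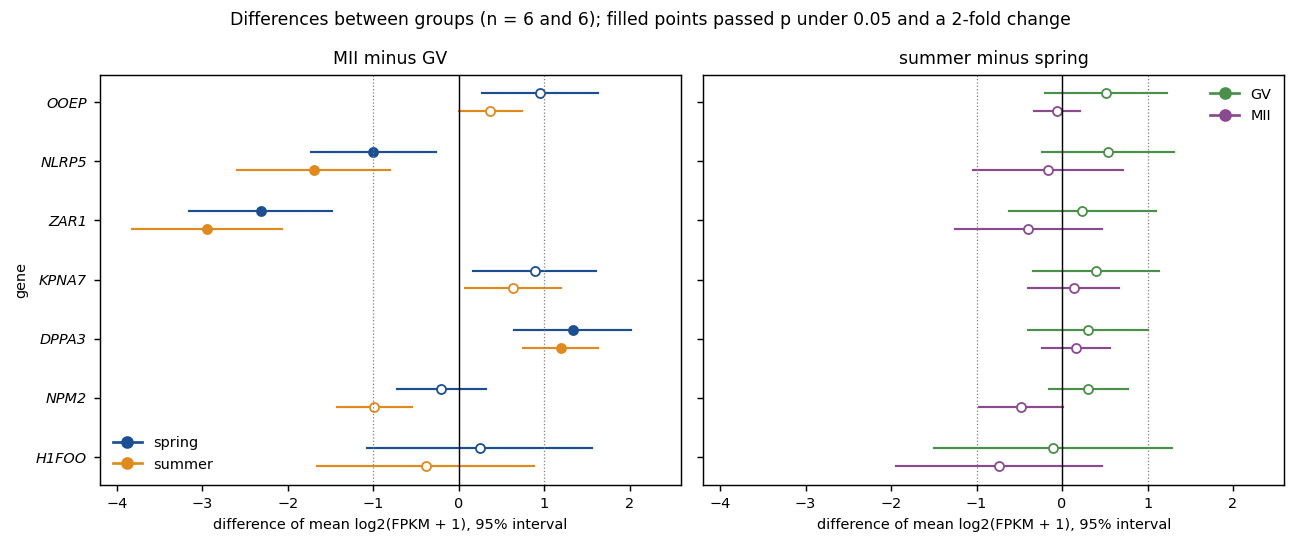
Differences of mean log2(FPKM + 1) with 95% limma intervals for the 7 genes, MII minus GV in each season on the left and summer minus spring at each stage on the right, with 6 libraries in each group and dotted lines at a 2-fold change. Filled points passed p under 0.05 and a 2-fold change and are NLRP5, ZAR1 and DPPA3 in both seasons on the left, and none on the right.

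The comparison of summer with spring asked whether the hot season went with altered transcripts at each stage. In GV oocytes none of the 7 was called by limma and none had an unadjusted p under 0.05, where 0.0315% of all genes were called. None had groups that did not overlap, against 0.178% of all genes. The limma adjusted p was 1 for each of the 7, and the exact permutation p ran from 0.104 for NPM2 to 0.883 for H1FOO. The differences of summer minus spring on the log2 scale were 0.54 for NLRP5, 0.52 for OOEP, 0.39 for KPNA7, 0.30 for DPPA3, 0.30 for NPM2, 0.24 for ZAR1 and -0.11 for H1FOO. Without the 6 libraries the ZAR1 difference was 0.01, and those of the other 6 kept their sign. In the same comparison all 8 listed oocyte markers were higher in summer (median log2 difference 0.55) and 11 of 14 tested cumulus markers were lower (median -0.18), none of them called by limma and 1 and 0 with an unadjusted p under 0.05, beside a median of 0.01 over all genes. Their part in the differences of the 7 genes was not tested. The precision was limited, since the 95% intervals of the fold change were 0.850 to 2.48 for NLRP5, 0.873 to 2.35 for OOEP and 0.787 to 2.19 for KPNA7, each of which includes a 2-fold increase. For NPM2, at 28.8 ± 8.65 FPKM in spring and 34.6 ± 2.63 in summer (SD, n = 6), the interval of 0.896 to 1.70 excluded a 2-fold difference.

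In MII oocytes again none of the 7 was called by limma and none had an unadjusted p under 0.05, where 0.042% of all genes were called. The season groups overlapped for each of the 7, against 0.178% of all genes without overlap. The smallest p was that of NPM2, at 24.6 ± 6.60 FPKM in spring and 17.6 ± 5.33 in summer (SD, n = 6), a log2 difference of -0.48 (SE 0.23, limma p = 0.0562, adjusted p = 1, exact permutation p = 0.0584). Without the libraries that clustered apart the difference was -0.50 (limma p = 0.0301), and all 4 summer values, 10.2 to 18.7 FPKM, lay under all 4 spring values, 19.6 to 23.4, with an exact permutation p of 0.0286, the smallest that 4 and 4 libraries allow. That difference stayed under 2-fold. How many of all genes had no overlap in this smaller set was not counted, and the exclusion was added after seeing the data. Its p is therefore given as a description. The most precise members were OOEP and DPPA3, whose fold changes of 0.956 (95% interval 0.794 to 1.15) and 1.12 (0.848 to 1.47) excluded a 2-fold difference, and the sign for OOEP turned under median-of-ratios scaling (0.034). H1FOO had the least precise estimate, a log2 difference of -0.74 with a fold interval of 0.260 to 1.38. ZAR1, NLRP5 and KPNA7 differed by -0.39, -0.16 and 0.14, with exact permutation p of 0.374, 0.686 and 0.589.

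Whether the change from GV to MII itself differed between the seasons was tested in a fit over all 24 libraries. None of the 7 was called, where 0.21% of all genes were called, and 1 of them, NPM2, had an unadjusted p under 0.05. For NPM2 the change was lower in summer by 0.78 on the log2 scale (SE 0.31, limma adjusted p = 1.0), and it stood at rank 54 of the 9526 genes by p. Leaving out any library gave -0.90 to -0.65, and without the 6 libraries it was -0.76. The estimates for H1FOO, NLRP5, ZAR1, OOEP, KPNA7 and DPPA3 were -0.63, -0.70, -0.63, -0.58, -0.25 and -0.14, and the sign for DPPA3 turned under median-of-ratios scaling (0.12). This comparison uses the same libraries as the comparisons above, so it adds no independent evidence to them.

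Other genes of the same programme were counted from fixed lists. Of 11 relatives of the subcortical maternal complex and NLRP family, NLRP9 alone was listed, and it was called in no comparison. It stood at 3.49 ± 0.718 FPKM in spring GV and 7.30 ± 2.37 in summer GV oocytes (SD, n = 6). The log2 difference was 0.85, with an unadjusted limma p of 0.00186 and an adjusted p of 1. Its spring GV values, 2.66 to 4.48 FPKM, did not overlap its summer GV values, 4.62 to 10.6, as was so for 0.178% of all genes. Of 28 other maternal effect genes 18 were listed and 16 were tested. In spring 2 of the 16 were called higher at MII and none lower, beside 3.57% and 8.25% of all genes. In summer 1 was called higher and none lower, beside 2.2% and 9.26%. HSF1 went from 1.23 ± 0.739 to 0.175 ± 0.0829 FPKM in summer without a call (log2 difference -0.87, limma adjusted p = 0.00260). By estimate alone, 12 of the 16 were higher and 4 lower at MII in spring, and 11 and 5 in summer. None was called between seasons by limma, where an unadjusted p under 0.05 was reached by none in GV and 1 in MII oocytes, beside 148 and 201 of all 9526 genes. DNMT1, the maintenance DNA methyltransferase, rose in both seasons, from 1.64 ± 0.646 to 5.34 ± 1.46 FPKM in spring (log2 difference 1.26, limma adjusted p = 0.00164) and from 2.06 ± 0.780 to 5.80 ± 2.13 in summer (1.12, limma adjusted p = 0.00458). ZAR1L, the paralog of ZAR1, rose in spring from 27.1 ± 13.0 to 60.8 ± 18.1 FPKM (1.21, limma adjusted p = 0.0151), in contrast to the fall of ZAR1. Its summer difference was 0.49 (limma adjusted p = 0.295).

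Of 20 relatives of NPM2, KPNA7, H1FOO and DPPA3 by family, 13 were listed and 11 were tested. In spring 1 of them was called higher and 1 lower at MII, beside 3.57% and 8.25% of all genes. In summer none was called higher and 2 were called lower, beside 2.2% and 9.26%. By estimate alone, 5 of the 11 were higher and 6 lower at MII in spring, and 6 and 5 in summer. None was called between seasons by limma, where 2 had an unadjusted p under 0.05 in GV and 1 in MII oocytes, beside the same 148 and 201 of all genes. KPNA2, a widely expressed importin alpha, fell in summer from 45.3 ± 4.61 to 20.8 ± 5.97 FPKM (SD, n = 6; log2 difference -1.13, limma adjusted p = 0.00110), while its spring difference was -0.93 (limma adjusted p = 0.0197) and under 2-fold. Among replication-dependent linker histones, HIST1H1C rose in spring (1.42, limma adjusted p = 0.0159), and HIST1H1E fell in spring (-1.33, limma adjusted p = 0.0201) and in summer (-1.25, limma adjusted p = 0.00614). These histone genes are near copies of each other, and how reads shared by them were counted is not given in the sources used here, so their values are uncertain. Of 8 oocyte transcription factors 2 were listed, and neither passed the filter on low values.

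On the assembly UMD3.1.1 that the table uses, OOEP lies at chr9:12981372-12982551 on the minus strand and NLRP5 at chr18:63668487-63683297 on the plus strand. ZAR1 lies at chr6:68820787-68824913, KPNA7 at chr25:37664542-37691693, DPPA3 at chr5:101791824-101799617 and NPM2 at chr8:69839082-69853635, each on the plus strand, and H1FOO lies at chr22:56829078-56860069 on the minus strand. The 7 are on 7 different chromosomes, and no other gene of the table overlaps any of them.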

How the data were processed

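RNA was measured in 24 libraries of bovine GV and MII oocytes of spring and summer. The submitters' processing notes name FastQC, STAR 2.5.3a, Partek and UMD3.1. The deposited values are FPKM, which the authors computed from trimmed reads aligned to UMD3.1.1. A common total and a lowest value of 0.01 were found in the values, and the steps behind them are not given in the sources used here. The kit primes cDNA on poly(A) tails, so RNA amount and tail length cannot be told apart. Replicate libraries were compared, and no pair was identical.

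Differences of log2(FPKM + 1) were fitted with limma 3.58.1 in R 4.3.3 over the 9526 genes above 0.1 FPKM in at least 1 library, with the spread moderated along mean expression. Only the groups compared entered each fit, and all 4 entered that of the season difference. Fold changes are on the log2(FPKM + 1) scale, which understates the change of low genes. P-values were adjusted by the Benjamini-Hochberg method over all genes tested. The 5 comparisons share libraries. For each member a two-sided exact permutation test used all 924 ways to split 12 libraries evenly. The fit was tested on simulated data.

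No counts are given, so no counting error is stated. Python 3.11.15 (numpy 2.4.6, pandas 2.3.3, scipy 1.17.1) served to estimate relative depth from the spacing of low values, of which 93.6 to 97.8% per library were whole multiples within 0.1 of a step. Only values up to about 10 steps were checked. The steps, and the depth where too few values were whole, were set from these same values. The share is therefore no independent check of the depth.

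All 7 members are named, with the called members of each list and the 2 genes most like each member. NLRP9 and the other genes with values that were not called were chosen after their values were seen. The members and lists were chosen with earlier results of these data known. The alternatives were pseudocounts of 0.1 and none, no filter, a mean of at least 1 FPKM, median-of-ratios scaling, quantile normalization, all 4 groups in the fit, 3 libraries of low depth left out, a replicate block, adjusted p as threshold and each library left out. Leaving out the 6 libraries that clustered apart was added after seeing the data.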

Additional observations from a re-analysis of the deposited data

Results flagged for a closer look

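KPNA7 in spring GV replicate 2, at 30.0 FPKM, stood apart from the other 5 libraries of its group, with a gap to the nearest of 0.627 of the group's range, just above the limit of Dixon's test for 6 samples. It was the 1 library so marked among 28 groups of 6 examined, where chance alone marks about 1 in 20 groups of normally distributed values. The test was run on FPKM without logarithm. On the log2(FPKM + 1) scale of the fits, where the test was not run, this library was at 4.95. The next was at 3.99 and the lowest of the group at 2.78. Leaving it out brought the spring difference of KPNA7 between MII and GV oocytes from 0.89 to 1.15 on the log2 scale.

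The change of NPM2 from GV to MII differed between the seasons by -0.78 on the log2 scale (SE 0.31), with an unadjusted limma p under 0.05 and an adjusted p of 1.0 over all genes. The GV to MII change was -0.21 in spring and -0.99 in summer. The difference thus fails the correction for multiple tests.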

How the results depend on the processing

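The number of the 7 genes called kept to 0 in both season comparisons and in the season difference, and to 3 or 4 in both maturation comparisons, under every alternative other than leaving out single libraries, when it was 2 to 4 in spring and 3 to 4 in summer. ZAR1 and DPPA3 were called in both seasons, and NLRP5 in summer, under every alternative and on leaving out any single library. Directions that turned were those of uncalled differences. They were the summer minus spring difference in MII oocytes of OOEP under median-of-ratios scaling (0.034) and of NLRP5 without 3 libraries of low depth (0.017), the spring maturation difference of NPM2 under quantile normalization (0.084) and the season difference of DPPA3 under median-of-ratios scaling (0.12). On leaving out single libraries, the season difference in GV oocytes was -0.54 to 0.27 for H1FOO and -0.0052 to 0.45 for ZAR1, that in MII oocytes was -0.34 to 0.024 for NLRP5 and -0.13 to 0.0084 for OOEP, the spring maturation difference of H1FOO was -0.19 to 0.56, and the season difference of DPPA3 was -0.31 to 0.090. The cause was not tested. The replicate block left 35 of 35 values of the 7 genes with the same call and direction and called 0 of the 7 in the season comparisons and 3 in each maturation comparison. Every group holds the same replicate numbers, so the block cannot change a difference. The direction and the fold part of each call were thus fixed, and only the p-values could move. Same-numbered libraries correlated from -0.44 to 0.76 in their deviations from the group means, and only 1 to 4 of 6 pairs per comparison exceeded 0.1, so the numbers were not taken as pairs. The hint of pairing was strongest between the MII groups, where 4 of 6 libraries correlated best with their own number, against 0 to 3 elsewhere. Replicate 6 of both MII groups was among the libraries that clustered apart, and its part in this was not tested. NPM2, looked at because it had the smallest p there, was lower in summer in all 6 same-numbered pairs. How many of all genes were so was not counted. With the replicate block its limma p was 0.0361 in place of 0.0562, still under 2-fold. As the numbers are not tied to animals, nothing is concluded from that p.

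Over all genes, the number called with a pseudocount of 0.1 and with none was 2628 and 3536 in spring maturation (1126 with a pseudocount of 1), 2521 and 3592 in summer maturation (1092), 37 and 116 between seasons in GV (3), 23 and 102 in MII (4) and 96 and 191 for the season difference (20). For these small counts, median-of-ratios scaling gave 6, 1 and 11 and all 4 groups in the fit gave 14 and 6, while adjusted p as threshold gave 0, 0 and 0. Without the 3 libraries of low depth 9 genes were called in MII, and without the 6 that clustered apart 2. Precision is limited by 6 libraries per group and by unknown read counts, and a difference under 2-fold could not be called by rule.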

Other observations

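The genes whose log2(FPKM + 1) followed each of the 7 most closely over the 24 libraries were looked up among 3665 genes with a mean of at least 1 FPKM, as a description. The libraries share stage, season and depth differences, so Pearson's r is given with the r of values centred on their group means. For ZAR1 they were ADRM1 (r = 0.976, centred 0.916) and GRHPR (0.974, 0.882), and for NLRP5 they were XAB2 (0.956, 0.910) and HINFP (0.942, 0.927). For DPPA3 they were HIGD1A (0.940, 0.834) and CHMP5 (0.934, 0.792), and for H1FOO they were PYCRL (0.928, 0.948) and ANAPC11 (0.927, 0.972). OOEP had LSM7 (0.851, 0.746) and UQCRH (0.812, 0.705), KPNA7 had JAGN1 (0.860, 0.772) and RABL2B (0.839, 0.732), and NPM2 had MVP (0.812, 0.609) and NLRP5 (0.801, 0.658). NLRP5 was the only member among the 14 genes so named.

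The spread between libraries, as the SD divided by the mean, was larger in spring than in summer GV oocytes for 6 of the 7 genes (all but NLRP5), as it was for 64.99% of the 3665 genes. NPM2 varied by 30.0% in spring GV and by 7.60% in summer GV oocytes, and OOEP by 49.8% and 23.3%. In MII oocytes the spread was larger in spring for 1 of the 7, OOEP, beside 42.0% of the 3665 genes. Without the 6 libraries that clustered apart the counts were 6 of 7 and 1 of 7, then NLRP5, beside 71.9% and 23.4%. The difference in spread was not tested.

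Of the 8 oocyte markers tested, 5 were higher and 3 lower at MII in spring, of which 2 were called higher and none lower, beside 3.57% and 8.25% of all genes. In summer 4 were higher and 4 lower, of which none was called higher and 1 lower, beside 2.2% and 9.26%. ZP2 and BMP15, a zona pellucida protein and a growth factor of the oocyte, rose from GV to MII in spring (log2 differences 1.65 and 1.35, limma adjusted p = 0.000629 and 0.0354), and ZP3 was called lower at MII in summer (-1.50, limma adjusted p = 0.0783). The maturation change of ZP2 was lower in summer by 1.21 (limma adjusted p = 1.0), past the unadjusted threshold only. HAS2, a hyaluronan synthase of cumulus cells, was called higher at MII in both seasons (1.06 and 1.04), as the 1 of 14 tested cumulus markers that was called. Of those 14, 10 were lower at MII in spring (median log2 difference -0.21) and 8 in summer (median -0.01).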
